A study of Rattus norvegicus with 25 samples.

Results

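Immunoglobulin-producing cells of the gingiva were followed through 8 genes in bulk RNA sequencing of rat gum tissue. The genes were chosen by name, as markers of B cells (Ms4a1, Cd79a, Cd79b and Pax5), of plasma cells (Jchain, Mzb1 and Tnfrsf17) and of both (Pou2af1), and all 8 were found among the 30547 genes of the table. The 25 rats were Sprague-Dawley animals of wild type genotype, in 5 groups of 5, with 1 library per rat. The labels give an age of 6 weeks, whereas the study's methods give a somewhat older age and male sex. Sham rats were healthy controls that received a hydrogel as a control. Experimental periodontitis (EP) was set up with silk ligatures on the upper first molars of both sides and smears of Porphyromonas gingivalis, a bacterium of the periodontal pocket. The 3 treated groups, named after their gel (Cur gel, ZNP gel or the combined Cur/ZNP gel), had the same ligature and bacterium and then 200 µL of methylcellulose hydrogel with curcumin, zinc oxide nanoparticles or both, injected weekly into the pocket for 4 weeks. The sources do not say whether EP rats received a gel without drug, so EP and sham rats differed in ligature and bacterium and may have differed in the gel.

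B cells recognise antigen through a surface antibody whose signal is carried into the cell by the Cd79a and Cd79b chains. Once activated, often in follicles with high endothelial venules and Cxcl13-producing stroma, they can switch off the B cell program and turn into plasma cells, which secrete antibody. In gums with long-standing periodontitis these cells are a known part of the infiltrate, and plasma cells also line the salivary and nasal glands, where they make dimeric IgA for the secretions. In bulk tissue, fewer cells of a type and less RNA per cell cannot be told apart.

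Reads per library ranged from 50690789 to 81791804. Keratins and other genes of stratified epithelium, a list of which 15 of 16 genes were found, were present in all libraries and summed to between 200000 and 3440000 normalized counts (reads divided by the library's size factor). Sham 4, EP 3 and EP 4 stood apart through nasal gland lipocalins (5 of 9 listed genes found), which summed to between 15100000 (EP 3) and 27300000 (sham 4) normalized counts there and to between 1160 and 60900 in the other 22 libraries. The counts of called members and list genes in EP and in Cur/ZNP gel against sham, and the correlations, are also given without these 3 libraries.

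Each of the 8 members had 1 annotated transcript, and the table places it on the Rnor_6.0 genome. Ms4a1 spans chromosome 1 from 227429596 to 227441442 on the minus strand, and Cd79a spans the same chromosome from 81763614 to 81767980 on the plus strand. Cd79b lies on chromosome 10 from 94497448 to 94500591 on the minus strand, and Pax5 on chromosome 5 from 60007587 to 60191941 on the minus strand. Jchain lies on chromosome 14 from 21177237 to 21183542 on the plus strand, Mzb1 on chromosome 18 from 28436548 to 28438654 on the minus strand, Tnfrsf17 on chromosome 10 from 4251941 to 4257868 on the minus strand and Pou2af1 on chromosome 8 from 55603968 to 55631446 on the plus strand. The members therefore come from 6 chromosomes, and all are annotated as protein coding.

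The stretches around the start sites of members are shown as a description, from 250 bases before to 50 bases after the start. RefSeq promoters of the GRCr8 assembly, another build than that of the count table, were matched for 3 of the 8 members. Capitals mark matches, on either strand, to 4 motifs: the octamer ATGCAAAT, bound by the Oct factors for which Pou2af1 is the coactivator, the ETS core GGAAGT, the E-box CAGGTG of E2A-type factors, and the TATA box TATAAA. The motifs do not overlap one another in these windows.
Cd79a, chr1:89621210-89621509, plus strand: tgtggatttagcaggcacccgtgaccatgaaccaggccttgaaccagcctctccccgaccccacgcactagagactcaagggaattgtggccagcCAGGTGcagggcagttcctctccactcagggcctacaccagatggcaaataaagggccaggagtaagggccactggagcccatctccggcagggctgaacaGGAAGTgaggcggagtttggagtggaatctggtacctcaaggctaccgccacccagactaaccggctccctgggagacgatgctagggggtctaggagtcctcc
Jchain, chr14:19822726-19823025, plus strand: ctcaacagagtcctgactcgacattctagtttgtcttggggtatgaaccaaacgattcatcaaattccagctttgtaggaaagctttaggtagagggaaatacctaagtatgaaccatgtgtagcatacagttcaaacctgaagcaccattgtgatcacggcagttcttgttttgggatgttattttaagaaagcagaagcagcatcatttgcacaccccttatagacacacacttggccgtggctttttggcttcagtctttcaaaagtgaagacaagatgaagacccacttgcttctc
Tnfrsf17, chr10:4813723-4814022, minus strand: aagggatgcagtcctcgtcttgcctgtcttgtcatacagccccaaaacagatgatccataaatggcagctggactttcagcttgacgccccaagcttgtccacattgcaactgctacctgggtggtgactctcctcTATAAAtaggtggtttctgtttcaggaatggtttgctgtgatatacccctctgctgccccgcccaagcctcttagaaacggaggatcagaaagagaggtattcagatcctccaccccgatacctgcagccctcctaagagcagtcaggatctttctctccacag
The Cd79a window held the ETS core at position -54 and the E-box at -155 from the start. The Tnfrsf17 window held the TATA box at position -114, and the Jchain window held none of the 4 motifs. Of all 33469 RefSeq promoters of the same length, 22.6% held the ETS core, 18.8% the E-box, 14.2% the TATA box and 1.78% the octamer, so that the matches found are common ones. Ms4a1, Cd79b, Pax5, Mzb1 and Pou2af1 had no entry.

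The 4 B cell genes had one pattern, with sham rats 1, 4 and 5 above the other 22 libraries. Ms4a1, the CD20 antigen of mature B cells, read 5310, 276, 278, 4930 and 3410 normalized counts in sham rats 1 to 5 and 28.2, 128, 792, 833 and 1140 in EP rats 1 to 5. It read 443, 44.0, 689, 417 and 697 in Cur gel rats, 112 to 1200 with a median of 630 in ZNP gel rats, and 13, 208, 173, 1910 and 22.8 in Cur/ZNP gel rats. Sham rats 2 and 3 lay inside the EP range, and Cur/ZNP gel rat 4 was the highest library outside the sham group.

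Cd79a and Cd79b, the signalling chains of the B cell receptor, were likewise highest in sham 1, 4 and 5. Cd79a read 6880, 454, 278, 5090 and 2970 in sham and 66.0, 130, 1840, 1890 and 969 in EP rats. It read 496, 56.5, 798, 371 and 721 in Cur gel rats, 1070, 150, 1490, 1150 and 565 in ZNP gel rats and 16.5, 417, 274, 2170 and 52.6 in Cur/ZNP gel rats. Cd79b read 8430, 379, 313, 6110 and 3280 in sham, 48.5, 142, 1360, 1340 and 1180 in EP and 24.4, 300, 182, 2160 and 22.8 in Cur/ZNP gel rats. Within each group the highest library exceeded the lowest by between 9.93-fold (Cd79a in ZNP gel rats) and 131-fold (Cd79a in Cur/ZNP gel rats) for these 2 genes.

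Pax5, the transcription factor that holds cells in the B cell fate and is switched off in plasma cells, had the same 3 libraries on top. It read 2330, 97.8, 77.4, 1120 and 841 in sham and 23.3, 28.5, 31.0, 202 and 198 in EP rats. It read 61.6, 0, 108, 57.0 and 142 in Cur gel rats, 38.1, 30.3, 154, 145 and 53.9 in ZNP gel rats and 7.83, 31.1, 23.1, 200 and 5.95 in Cur/ZNP gel rats. Sham 1, 4 and 5 were at 841 or more while no other library passed 202. The count of 0 in Cur gel 2 allows up to 3 reads, or 3.14 normalized counts, by counting error alone.

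The 3 high sham libraries carried 96.1% of the sham sum of Ms4a1, 95.3% of that of Cd79a, 96.3% of that of Cd79b and 96.1% of that of Pax5. In the Cur/ZNP gel group a single rat, number 4, carried between 74.0% (Cd79a) and 82.1% (Ms4a1) of the group's sum. The summed normalized counts of these genes in those groups thus rested on 1 to 3 rats. The tests compare means of log2(normalized count + 1), in which low rats such as Cur/ZNP gel 1 and 5 (13.0 and 22.8 for Ms4a1) weigh as well.

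**Figure D1:**
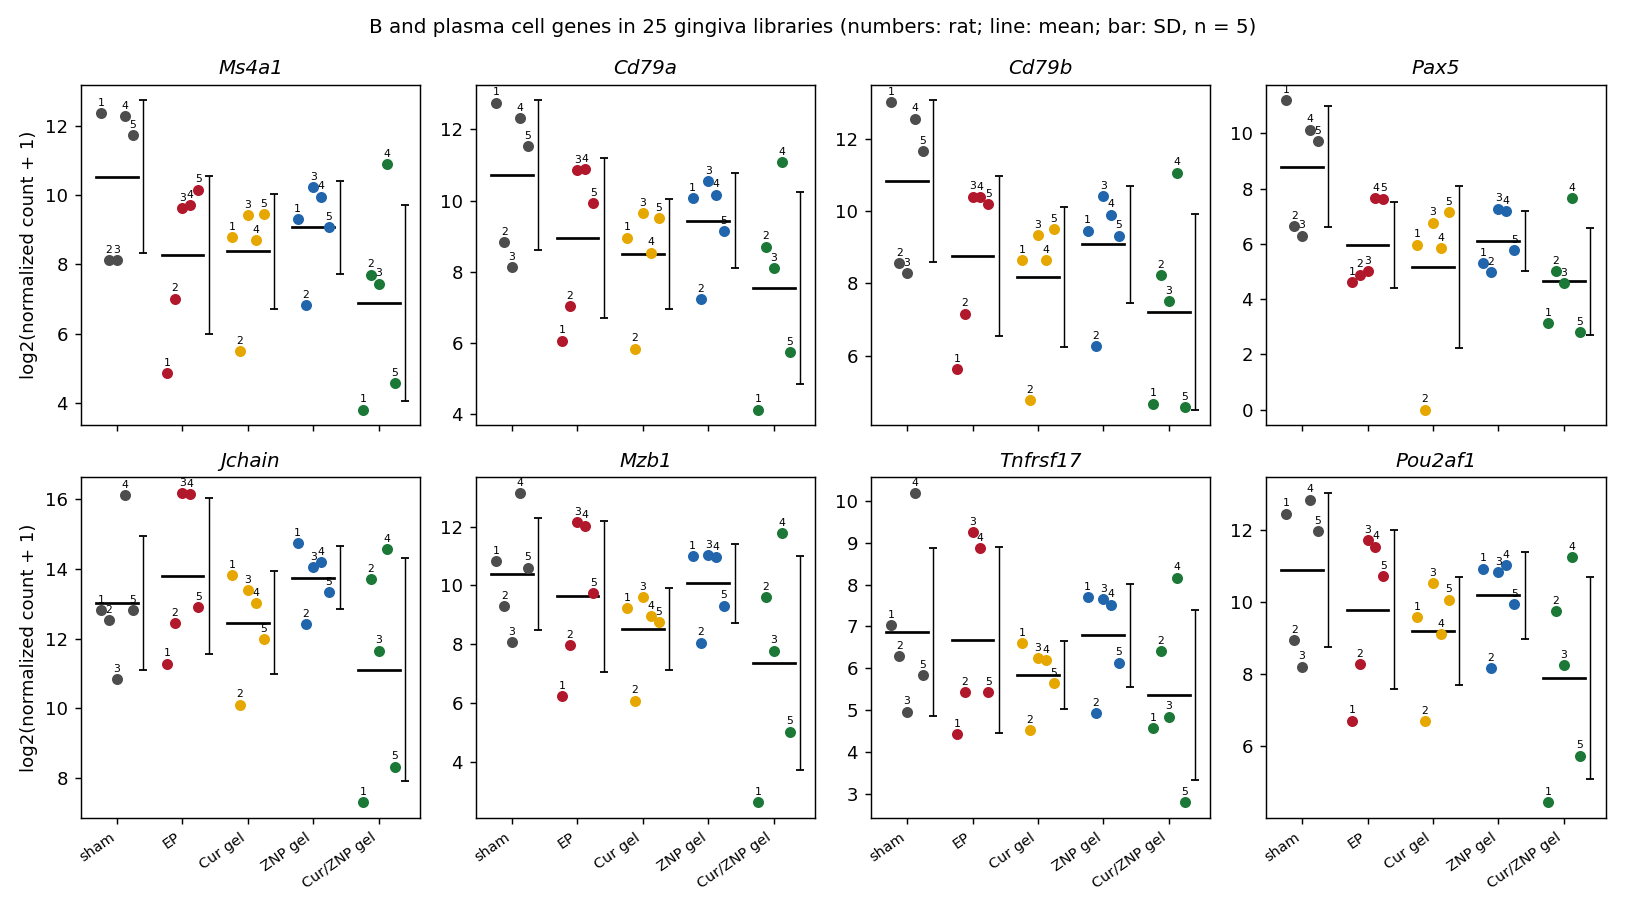
Each panel plots 1 gene as log2(normalized count + 1) in the 5 groups, with a point per rat (numbered), the group mean as a line and the SD as a bar (n = 5). In the panels of Ms4a1, Cd79a, Cd79b and Pax5, sham rats 1, 4 and 5 sit above all other rats, and in those of Jchain, Mzb1 and Tnfrsf17 sham 4, EP 3 and EP 4 do.

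In normalized counts the plasma cell genes had another set of high libraries, sham 4, EP 3 and EP 4, the ones with high nasal gland lipocalins. Jchain, which joins IgA and IgM units into polymers, read 7200, 5900, 1820, 71100 and 7260 normalized counts in sham and 2490, 5580, 74500, 72400 and 7700 in EP rats. It read 14400, 1100, 10700, 8260 and 4070 in Cur gel rats, 27400, 5430, 17000, 18700 and 10300 in ZNP gel rats and 157, 13400, 3220, 24400 and 319 in Cur/ZNP gel rats. These 3 libraries were at 71100 or more and the other 22 at 27400 or less, so sham and EP rats overlapped over the whole range.

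Mzb1, a chaperone of antibody assembly in the endoplasmic reticulum, read 1810, 623, 270, 9050 and 1560 in sham and 74.8, 250, 4520, 4190 and 847 in EP rats. It read 67.0 to 774 in Cur gel rats, 266 to 2090 in ZNP gel rats and 5.22, 772, 220, 3500 and 31.7 in Cur/ZNP gel rats. Tnfrsf17, the survival receptor BCMA of plasma cells, read 130, 77.3, 30.2, 1170 and 56.0 in sham and 20.4, 42.3, 610, 470 and 41.8 in EP rats. It stayed between 22.0 and 96.6 in Cur gel rats, 29.4 and 208 in ZNP gel rats and 5.95 and 286 in Cur/ZNP gel rats. In normalized counts both genes were again highest in sham 4, EP 3 and EP 4. Mzb1 was at 4190 or more there and Tnfrsf17 at 470 or more, against at most 3500 and 286 elsewhere. These 3 libraries had the smallest size factors of all, which raises their normalized counts. In CPM (reads scaled to a common library total) the set held for Jchain (569 or more, against at most 508) but not for these 2 genes. Mzb1 stood at 63.2 in Cur/ZNP gel 4, above EP 3 (49.4) and EP 4 (40.5). Tnfrsf17 stood at 5.16 in Cur/ZNP gel 4, above EP 4 (4.53).

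Pou2af1, the octamer coactivator used by B cells and plasma cells alike, read 5600, 493, 295, 7300 and 4010 in sham and 104, 311, 3350, 2960 and 1670 in EP rats. Its 3 highest libraries were those of the B cell genes, sham 1, 4 and 5. The next in normalized counts was EP 3, so it followed both patterns on that scale. In CPM the next was Cur/ZNP gel 4 (43.6), with EP 3 at 36.7. In the gel groups it ranged from 103 to 1470 in Cur gel, from 287 to 2090 in ZNP gel and from 20.9 to 2410 in Cur/ZNP gel rats.

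The 2 groups of genes could be set against each other within a library by taking the mean log2(normalized count + 1) of each. The plasma cell mean lay below the B cell mean by 2.11 in sham 1 and by 1.41 in sham 5, where it was the B cell genes that were high, and above it by 3.55 in EP 3. Sham ranged from -2.11 to 1.33 (median 0.25), EP from -0.13 to 3.55 (median 2.10), Cur gel from -0.10 to 2.88 (median 1.45), ZNP gel from 1.26 to 2.62 (median 1.58) and Cur/ZNP gel from 0.90 to 2.49 (median 1.18). The groups overlapped. This difference was formed after the values were seen and no test was run on it.

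**Figure D2:**
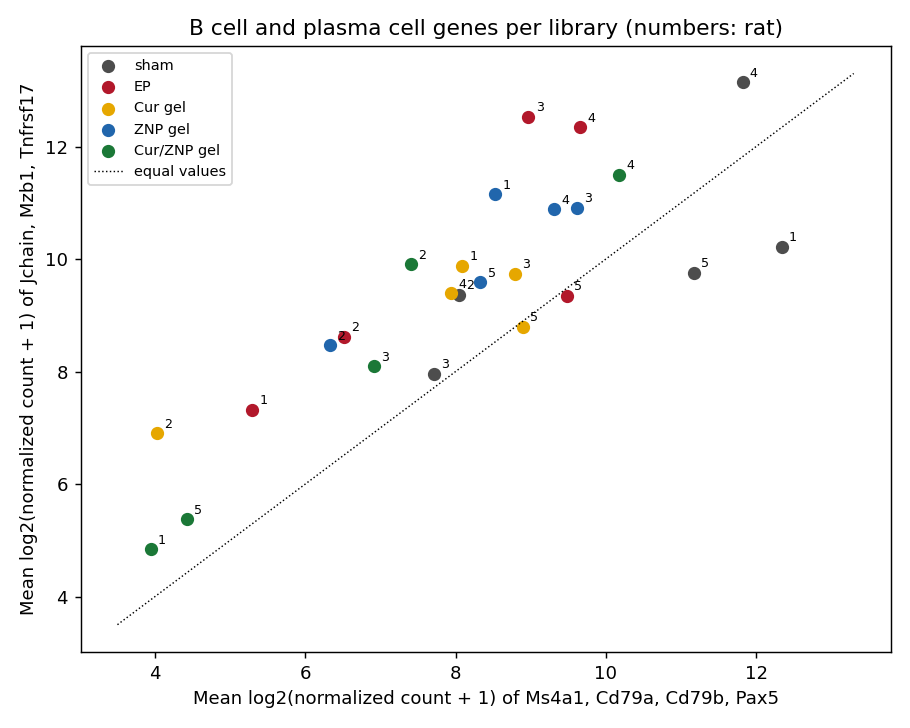
The mean log2(normalized count + 1) of Jchain, Mzb1 and Tnfrsf17 is plotted against that of Ms4a1, Cd79a, Cd79b and Pax5, with 1 numbered point per rat, and the dotted line marks equal values. Sham 1 and sham 5 lie well under the line, at differences of -2.11 and -1.41, and EP 3 lies furthest over it, at 3.55.

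Across the 25 libraries, log2 values of the B cell genes correlated with each other at Pearson r from 0.86 to 0.986 (6 pairs) and those of the plasma cell genes at 0.882 to 0.949 (3 pairs). Between the 2 kinds r was 0.564 to 0.942 (12 pairs). Pou2af1 correlated at 0.815 to 0.985 with the B cell genes and at 0.821 to 0.965 with the plasma cell genes. With the group means removed the ranges were 0.829 to 0.989, 0.868 to 0.968 and 0.557 to 0.946 for the first 3 kinds of pair, so the shared variation lay among rats of the same group as well. Over the 22 libraries without sham 4, EP 3 and EP 4 these 3 ranges were 0.88 to 0.986, 0.854 to 0.936 and 0.573 to 0.934. These r values describe libraries that share groups, depth and normalization and carry no test.

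The first comparison, EP against sham, asks what ligature and bacterium changed, together with any difference in the gel. No B or plasma cell gene passed the test, although 7 of 8 had lower mean log2 values in EP and the median difference was -1.43, against 0.01 over all genes. By limma with Benjamini-Hochberg adjustment over all 16092 tested genes, 37.6% of genes were called in this comparison, 18.8% higher and 18.8% lower, and 0 of the 8 members, with 1 at an unadjusted p under 0.05. The members all passed the filter on low values.

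Pax5 came nearest, at a log2 difference of -2.83 (SE 1.23, n = 5 per group, limma adjusted p = 0.0736), a mean 7.13-fold lower on this scale. Its 95% interval ran from -5.38 to -0.28. Ms4a1 differed by -2.25 (SE 1.28, limma adjusted p = 0.17), Cd79b by -2.07 (SE 1.31, limma adjusted p = 0.219) and Cd79a by -1.76 (SE 1.23, limma adjusted p = 0.268). These 3 had intervals that included 0, from as low as -4.89 for Ms4a1 to as high as 0.79 for Cd79a. The Pax5 result depended on the method: DESeq2, which called 42.5% of all genes, called it (adjusted p = 0.00562), edgeR with TMM factors, which called 37.0%, did so too (adjusted p = 0.0341), and by limma it was called without sham 2 (adjusted p = 0.0401) or without sham 3 (adjusted p = 0.0451). Its difference was -2.75 (limma adjusted p = 0.181) without sham 4, EP 3 and EP 4, when 28.2% of all genes were called.

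For the plasma cell genes the sign itself was not fixed. Jchain differed by 0.77 (SE 1.26, limma adjusted p = 0.655), Mzb1 by -0.77 (SE 1.4, limma adjusted p = 0.691), Tnfrsf17 by -0.18 (SE 1.06, limma adjusted p = 0.906) and Pou2af1 by -1.09 (SE 1.23, limma adjusted p = 0.503). Without sham 4, EP 3 and EP 4, Jchain stood at -0.04, Mzb1 at -1.72 and Tnfrsf17 at -0.94. Tnfrsf17 stood at 0.65 without sham 4, and Mzb1 at 0.08 without EP 1. The 95% interval of Jchain, from -1.84 to 3.38, still held large differences either way. No member separated the 5 sham from the 5 EP rats without overlap, which 16.5% of all tested genes did. Nor did any in the other 9 comparisons, where the share of all genes was 17.7%, 13.8% and 18.7% for Cur gel, for ZNP gel and for Cur/ZNP gel against sham, 0.336%, 0.559% and 2.10% for the same gels against EP, and 2.55%, 0.969% and 0.447% for Cur/ZNP gel against Cur gel, Cur/ZNP gel against ZNP gel and ZNP gel against Cur gel.

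The B cell genes were lower in Cur/ZNP gel rats than in sham rats. These groups differed in ligature, bacterium and drugs at once, and the parts of these cannot be told apart here. Ms4a1 fell, at a log2 difference of -3.64 (SE 1.28, limma adjusted p = 0.0278), as did Cd79b at -3.62 (SE 1.31, limma adjusted p = 0.0326), Cd79a at -3.16 (SE 1.23, limma adjusted p = 0.0452) and Pax5 at -4.15 (SE 1.23, limma adjusted p = 0.011), with 5 rats a group. These were 12.4-fold, 12.3-fold, 8.92-fold and 17.8-fold lower means on the log2(value + 1) scale. Thus 4 of 8 members were called, all lower, where 39.7% of all genes were called, 20.2% higher and 19.5% lower. The median difference over the members was -3.09, against -0.06 over all genes.

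The other 4 members were not called. Pou2af1 differed by -3.00 (SE 1.23, limma adjusted p = 0.0563), Mzb1 by -3.02 (SE 1.4, limma adjusted p = 0.0883), Jchain by -1.91 (SE 1.26, limma adjusted p = 0.233) and Tnfrsf17 by -1.51 (SE 1.06, limma adjusted p = 0.263). All 8 differences were negative, but the groups overlapped for each gene, since Cur/ZNP gel 4 lay above sham 2 and 3.

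Of the 4 calls, that of Pax5 remained with each library left out in turn and with every other method run (highest limma adjusted p 0.0385, without sham 1). The calls of Ms4a1, Cd79a and Cd79b were lost without sham 1, without sham 4, without sham 5, without Cur/ZNP gel 1 or without Cur/ZNP gel 5, and that of Cd79a also without Cur/ZNP gel 3 (limma adjusted p = 0.0553). Without sham 1 the limma adjusted p of Ms4a1 was 0.0769, that of Cd79a 0.121 and that of Cd79b 0.093. Without Cur/ZNP gel 1 they were 0.0896, 0.144 and 0.0937. When sham 4, EP 3 and EP 4 were left out and 36.9% of all genes were called, only Pax5 was called (-3.82, limma adjusted p = 0.0327), with Ms4a1 at -3.20, Cd79a at -2.76 and Cd79b at -3.18. edgeR with TMM factors (39.6% of all genes) likewise called 1 member, Pax5, and DESeq2 (44.9%) called 5.

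Cur gel and ZNP gel rats were also set against the same sham rats, again with ligature, bacterium and drug differing together. In Cur gel rats 1 of 8 members was called, Pax5, which fell by 3.64 on the log2 scale (SE 1.23, limma adjusted p = 0.024), where 38.0% of all genes were called and 19.1% were lower. That call was lost without sham 1 (limma adjusted p = 0.0774), without sham 4 (0.0545 by limma, adjusted) or without Cur gel 2, the library at 0 reads (-2.35, limma adjusted p = 0.0886), and in the absence of sham 4, EP 3 and EP 4 (limma adjusted p = 0.0608, 36.8% of all genes called). edgeR with TMM factors called 2 members (40.8% of all genes) and DESeq2 5 (45.7%). In ZNP gel rats 0 of 8 were called, 1 of them at an unadjusted p under 0.05, where 32.1% of all genes were called, while edgeR with TMM factors (32.6% of all genes) and DESeq2 (38.9%) each called 1, Pax5. There Pax5 differed by -2.69 (SE 1.23, limma adjusted p = 0.0964), Ms4a1 by -1.45 (SE 1.28) and Jchain by 0.72 (SE 1.26).

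Against EP, which asks what each gel changed in diseased gums, no member was called in any gel group. Since EP rats may have had no gel, drug, gel base and injection cannot be told apart in these comparisons. The share of all genes called by limma was 0.0% for Cur gel, 0.00621% for ZNP gel and 0.0% for Cur/ZNP gel. With Cur gel the 8 differences ranged from -1.33 to 0.10 (median -0.70), with ZNP gel from -0.05 to 0.80 (median 0.36) and with Cur/ZNP gel from -2.68 to -1.32 (median -1.47). An unadjusted p under 0.05 was reached by 0, 0 and 1 of the 8, the last being Jchain with Cur/ZNP gel (-2.68, SE 1.26, limma adjusted p = 0.377). EP 3 and EP 4 carried the high Jchain values of the EP group, and without sham 4, EP 3 and EP 4 that difference was -1.10 and those of the 8 genes ranged from -1.10 to 0.26. edgeR with TMM factors (0.0% of all genes each) and DESeq2 (0.491%, 0.379% and 1.26%) called 0 members in these 3 comparisons too. The 95% intervals reached up to 2.89 on the log2 scale to either side of these differences, so sizeable changes could not be detected at this spread.

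Among the gels, the combined gel held each drug at a lower concentration than the single gels did, and no member was called in any of the 3 comparisons, where the share of all genes called by limma was 0.0% each time. Cur/ZNP gel differed from Cur gel by -1.49 to -0.48 (median -1.06) over the 8 genes and from ZNP gel by -2.71 to -1.43 (median -2.03). ZNP gel differed from Cur gel by 0.70 to 1.55 (median 0.95). The count at an unadjusted p under 0.05 was 0, 1 and 0, the 1 being Jchain in Cur/ZNP against ZNP gel rats (-2.63, limma adjusted p = 0.899). edgeR with TMM factors (0.0% of all genes each) and DESeq2 (0.0373%, 0.137% and 0.0435%) called 0 members in each.

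**Figure D3:**
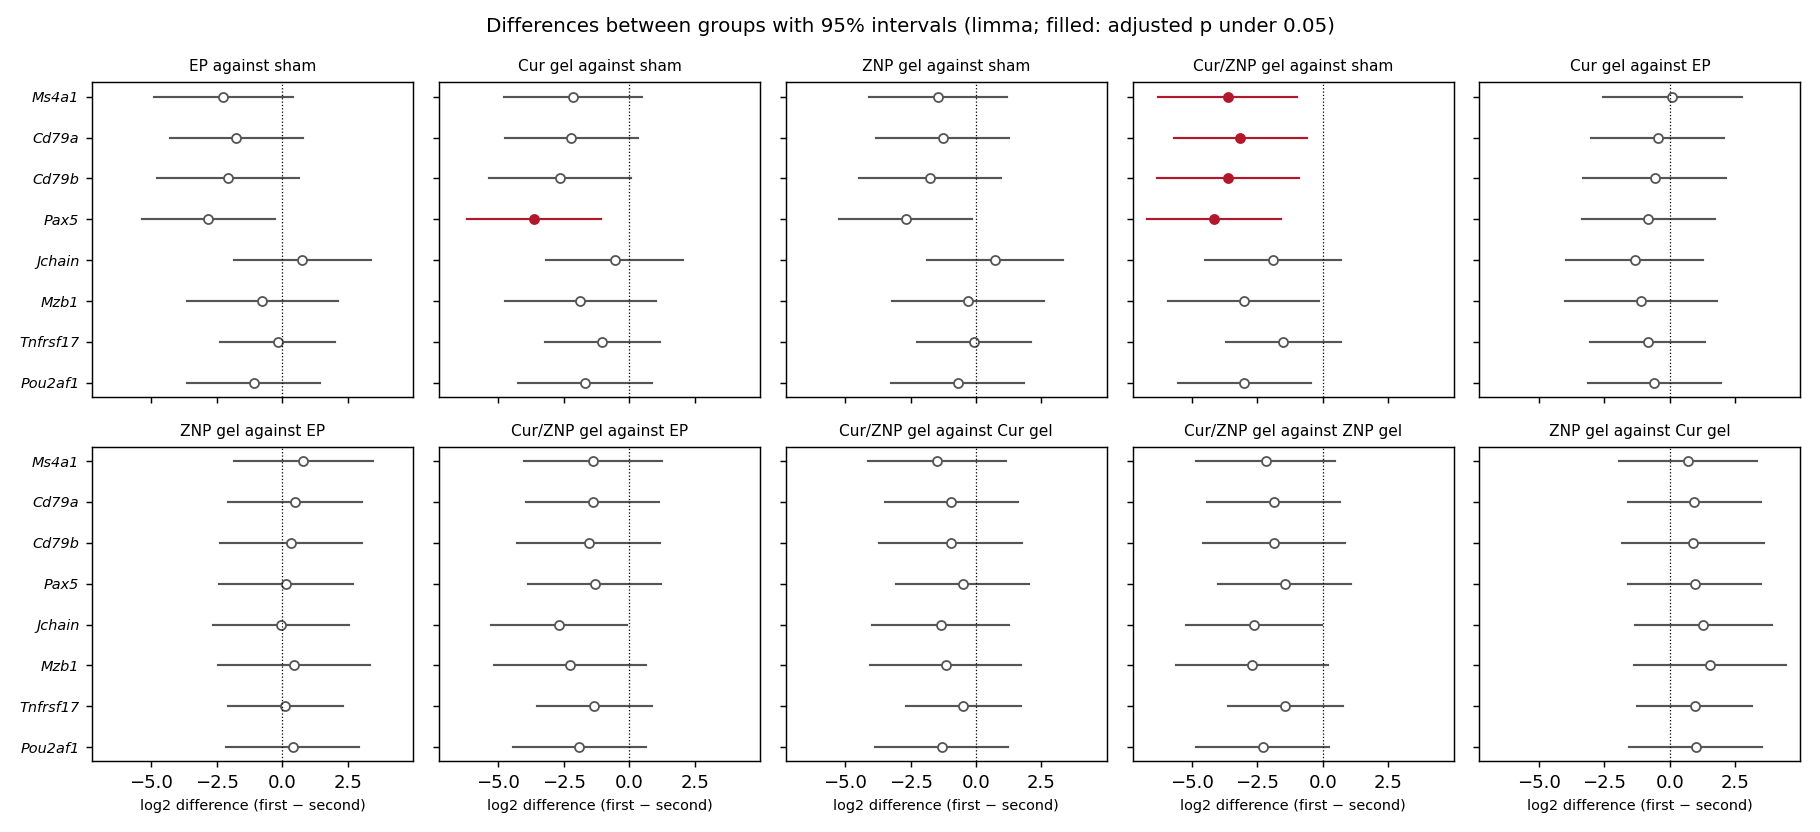
Points give the log2 difference of the 8 genes in each of the 10 comparisons and bars its 95% interval (limma, 5 rats per group), with filled red points where the adjusted p was under 0.05. The filled points are Pax5 in Cur gel against sham and Ms4a1, Cd79a, Cd79b and Pax5 in Cur/ZNP gel against sham.

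Further B cell genes of surface and receptor signalling (28 listed, 26 tested) were counted by direction. Between EP and sham 0 rose and 2 fell, where 37.6% of all genes were called, with a median difference of -0.98 against 0.01 over all genes, while edgeR with TMM factors called 6 and DESeq2 12. The 2 were Bcl10, an adaptor of antigen receptor signalling in many cell types (-0.63, SE 0.165, limma adjusted p = 0.0054), and Cd40, the receptor for T cell help (-1.20, SE 0.443, limma adjusted p = 0.0368). The complement receptor Cr2 read 492 to 17500 in sham and 61.2 to 2820 in EP rats (-2.95, SE 1.36, limma adjusted p = 0.09), the tetraspanin Cd37 differed by -1.40 (limma adjusted p = 0.0988), the low-affinity IgE receptor Fcer2 by -2.88 (limma adjusted p = 0.105) and Fcrla by -2.23 (limma adjusted p = 0.073).

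Between Cur/ZNP gel and sham 0 of the 26 rose and 11 fell, where 20.2% of all genes were higher and 19.5% lower and where the alternatives called 1 to 18 of the 26. Among the 11 were Cr2 (-4.05, limma adjusted p = 0.0219), Fcer2 (-4.25, limma adjusted p = 0.0188), Fcrla (-2.89, limma adjusted p = 0.0219), Cd37 (-1.77, limma adjusted p = 0.0372), Bcl10 (-0.73, limma adjusted p = 0.0018) and Cd40 (-1.42, limma adjusted p = 0.0146). The median was -1.36. With sham 4, EP 3 and EP 4 left out, 4 of the 26 were called in this comparison and 1 in EP against sham.

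Of the transcriptional regulators of B cells and germinal centres (19 listed, 17 tested), 2 rose and 3 fell between EP and sham, a smaller share than the 37.6% of all genes called. Foxo1 (1.66, SE 0.358, limma adjusted p = 0.00146) and Bach2 (1.30, SE 0.402, limma adjusted p = 0.0145) rose, and Irf8 (-1.41, SE 0.304, limma adjusted p = 0.00144), Tcf3 (-0.73, SE 0.159, limma adjusted p = 0.00148) and Bcl11a (-0.80, SE 0.25, limma adjusted p = 0.0154) fell. Pou2f1, the ubiquitous Oct1, differed by 1.01 (limma adjusted p = 0.0645). Foxo1, Tcf3, Irf8 and Bcl11a are also used by other tissues and leukocytes. Between Cur/ZNP gel and sham 2 rose and 5 fell, beside 39.7% of all genes called, with Foxo1 at 1.54 (limma adjusted p = 0.00228), Irf8 at -1.70 (limma adjusted p = 0.000336) and Tcf3 at -0.86 (limma adjusted p = 0.000422). Without sham 4, EP 3 and EP 4 the counts were 2 and 3 in both comparisons.

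Of the ligands and receptors that keep B cells alive (14 listed, 9 tested), 0 were called between EP and sham by limma, 0 of them at an unadjusted p under 0.05, 0 by edgeR with TMM factors and 5 by DESeq2. The shares of all genes called there were 37.6% by limma, 37.0% by edgeR and 42.5% by DESeq2. Tnfrsf13c, the BAFF receptor, read 83.9 to 3020 in sham and 18.0 to 406 in EP rats (-2.54, SE 1.34, limma adjusted p = 0.14), and its ligand Tnfsf13b, BAFF, 73.4 to 909 and 68.0 to 234 (-1.12, SE 0.645, limma adjusted p = 0.178). The chemokine receptor Cxcr4 differed by -1.05 (limma adjusted p = 0.109), the interleukin receptor Il21r by -1.82 (limma adjusted p = 0.165), the memory marker Cd27 by -1.97 (limma adjusted p = 0.218) and the ligand Tnfsf13, APRIL, by 0.84 (limma adjusted p = 0.225). Between Cur/ZNP gel and sham 0 rose and 4 fell: Tnfrsf13c (-4.60, limma adjusted p = 0.0101), Cxcr4 (-1.46, limma adjusted p = 0.0281), Il21r (-2.62, limma adjusted p = 0.0456) and Cd27 (-3.13, limma adjusted p = 0.0497). The share of all genes called there was 39.7%, with 19.5% lower. Leaving out sham 4, EP 3 and EP 4, 1 of the 9 rose and 1, Tnfrsf13c, fell (-4.20, limma adjusted p = 0.0295).

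Of the plasma cell program (18 listed and tested), 5 genes rose and 2 fell between EP and sham, a share close to the 37.6% of all genes called, with a median of 0.45. Without sham 4, EP 3 and EP 4, 4 rose and 1 fell, and the alternatives called 1 to 7 of the 18. Creb3l2 (2.09, SE 0.371, limma adjusted p = 0.000373), Edem1 (1.38, SE 0.342, limma adjusted p = 0.00378), Herpud1 (1.33, SE 0.446, limma adjusted p = 0.023), Tent5c (1.96, SE 0.67, limma adjusted p = 0.0253) and Xbp1 (1.53, SE 0.529, limma adjusted p = 0.0266) rose. Sdc1 (-1.18, SE 0.363, limma adjusted p = 0.0144) and Pim2 (-0.73, SE 0.284, limma adjusted p = 0.0468) fell, the latter named after its values were seen. Xbp1, Edem1, Herpud1 and Creb3l2 serve protein folding and secretion in all secretory cells, and Sdc1 is abundant in epithelium.

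Lists of other cell types and of cell division differed between the same groups. By limma, 37.6% of all genes were called between EP and sham and 39.7% between Cur/ZNP gel and sham. Without sham 4, EP 3 and EP 4 these shares were 28.2% and 36.9%. Autonomic nerve genes (12 of 12 found) summed to 591 to 145000 normalized counts in sham, 78.9 to 244 in EP and 184 to 46700 in Cur/ZNP gel rats. The neuropeptide gene Vip of this list was at 0 in EP 1, 3, 4 and 5. Of the 11 tested, 10 fell between EP and sham (median -6.85) and 9 between Cur/ZNP gel and sham (median -4.47), and 5 and 2 without sham 4, EP 3 and EP 4. In the Cur/ZNP gel comparison edgeR with TMM factors called 0 of them, 1 at an unadjusted p under 0.05, and DESeq2 1. Proliferation genes (18 of 19 found) summed to 28000 to 50800 in sham, 13900 to 22000 in EP and 12200 to 19900 in Cur/ZNP gel rats. Of these 18, 14 and 13 fell (12 and 13 without the 3 libraries), and their mean correlated with the B cell mean at r = 0.717 over the 25 libraries and 0.736 over the 22.

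Skeletal muscle genes (11 of 15 found) summed to 25200 to 434000 in sham, 402000 to 2080000 in EP and 381000 to 2960000 in Cur/ZNP gel rats. Of the 11, 9 rose in each comparison with sham, where 18.8% and 20.2% of all genes were called higher. By limma 0 and 3 of the 11 rose without sham 4, EP 3 and EP 4, with 9 at an unadjusted p under 0.05 in each. Mucous salivary gland genes (9 of 12 found) summed to 2690 to 2390000 in sham, 36200 to 9520000 in EP and 2730 to 5550000 in Cur/ZNP gel rats, and 0 of 7 tested were called in either comparison by limma, with 2 at an unadjusted p under 0.05 in each, while edgeR with TMM factors called 1 and 0 and DESeq2 1 and 1. The part of nerve, proliferation, muscle or gland in the B cell and plasma cell differences was not tested.

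Of 16 listed immunoglobulin chain genes 3 were found and 2 tested, Ighm (-0.18, limma adjusted p = 0.923) and Ighg1 (-0.66, limma adjusted p = 0.732), and neither was called between EP and sham, with 0 at an unadjusted p under 0.05 and 0 by edgeR or DESeq2. Of all genes, 37.6% were called by limma in this comparison. Ighm had 10 overlapping transcripts, so its summed value is uncertain. Igh-6, listed as another name of Ighm, had an entry of its own that was not counted here.

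Genes of the lymphoid tissue that houses B cells had their highest libraries partly in common with the B cell genes. Of the list of lymphoid stroma and high endothelial venules (13 listed, 11 tested), 0 rose and 2 fell between EP and sham, Ltbr (-0.43, SE 0.168, limma adjusted p = 0.0488) and the T zone chemokine Ccl19 (-3.10, SE 1.22, limma adjusted p = 0.0496), while edgeR with TMM factors and DESeq2 each called 4. This was a smaller share by limma than the 37.6% of all genes called. In the 22 libraries without sham 4, EP 3 and EP 4, limma called 0 of the 11. Glycam1, a mucin of high endothelial venules, read 57000, 2590, 519, 34000 and 22600 in sham and 21.4, 48.6, 43.7, 426 and 7130 in EP rats (-5.71, SE 2.37, limma adjusted p = 0.0613). The same 3 sham rats, 1, 4 and 5, were above the other 22 libraries for Glycam1 as for Ms4a1, and Cur/ZNP gel 4 came next at 9950. Between EP and sham 10 of the 11 differences were negative. Chst4, another gene of the list, went the other way, at 5.24 to 6280 in sham and 33.7 to 23200 in EP rats. It was called higher in Cur gel than in sham rats (5.41, SE 2.06, limma adjusted p = 0.0426).

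Fdcsp, made by follicular dendritic cells and also by the epithelium at the tooth, read 16000 to 70000 in sham and 33.1 to 8050 in EP rats (-4.30, SE 2.02, limma adjusted p = 0.0971). The 2 groups did not overlap for this gene, as was so for 16.5% of all tested genes. The lymphotoxins Ltb and Lta differed by -1.78 (limma adjusted p = 0.0589) and -2.49 (limma adjusted p = 0.0834). Between Cur/ZNP gel and sham 0 rose and 5 fell, including Glycam1 (-7.61, SE 2.37, limma adjusted p = 0.0146), Lta (-3.46, limma adjusted p = 0.0182) and Ltb (-2.12, limma adjusted p = 0.0253). The share of all genes called was 39.7%, with 19.5% lower. Without sham 4, EP 3 and EP 4, 2 of the 11 were called in this comparison.

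T cell and natural killer cell genes (24 listed, 22 tested) were examined as markers of neighbouring lymphocytes. Between EP and sham Cd4, also present on rat macrophages, rose (1.09, SE 0.284, limma adjusted p = 0.00516), and Cd247 (-1.90, SE 0.733, limma adjusted p = 0.0457) and Klrd1 (-2.24, SE 0.866, limma adjusted p = 0.046) fell. This was a smaller share than the 37.6% of all genes called. Cd2 differed by -1.35 (limma adjusted p = 0.0519), Lck by -1.36 (limma adjusted p = 0.166) and Cd5 by -1.10 (limma adjusted p = 0.211). The median was -0.92. Without sham 4, EP 3 and EP 4, 0 of the 22 rose and 2 fell. Summed over the list, sham rats ranged from 2070 to 19700 normalized counts, EP rats from 2320 to 8570 and Cur/ZNP gel rats from 2440 to 6250.

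**Figure D4:**
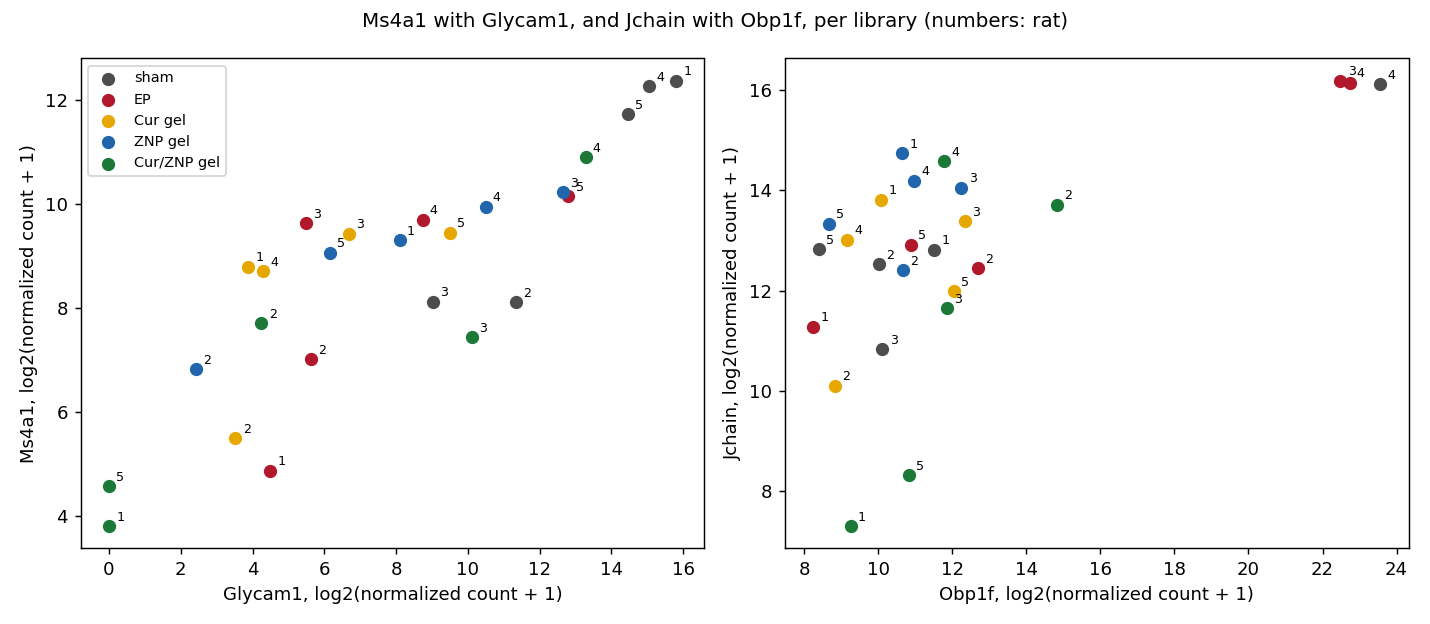
The left panel plots Ms4a1 against Glycam1 and the right panel Jchain against Obp1f, a nasal gland lipocalin, all as log2(normalized count + 1), with 1 numbered point per rat. Sham 1, 4 and 5 are highest for both Ms4a1 and Glycam1, whereas sham 4, EP 3 and EP 4 form a separate cluster of high Jchain and Obp1f.

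Over the 25 libraries, the mean standardised level of the lymphoid stroma and venule list correlated with the B cell mean at r = 0.943 and with the plasma cell mean at r = 0.768. The T cell list stood at 0.854 and 0.787, the immunoglobulin genes at 0.832 and 0.965, the nasal gland lipocalins at 0.42 and 0.681 and skeletal muscle at -0.377 and -0.294. The B cell mean thus had its highest value with lymphoid tissue genes and the plasma cell mean with immunoglobulin genes. Without sham 4, EP 3 and EP 4 the values were 0.947 and 0.793 for the stroma and venule list, 0.828 and 0.947 for the immunoglobulin genes and 0.297 and 0.391 for the nasal gland lipocalins. The libraries fall into clusters by nasal gland lipocalins, and these values carry no test.

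**Figure D5:**
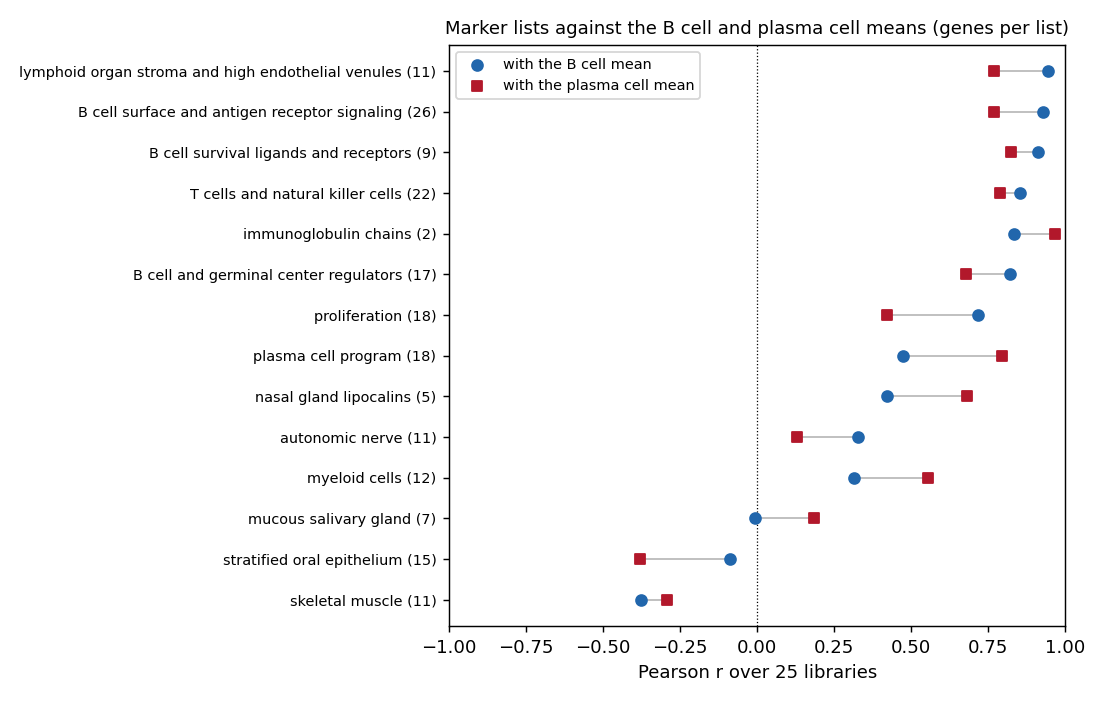
Points give the Pearson r over 25 libraries of each marker list (number of genes in brackets) with the B cell mean (circles) and the plasma cell mean (squares). The list of lymphoid organ stroma and high endothelial venules is highest for the B cell mean, at 0.943, and that of immunoglobulin chains for the plasma cell mean, at 0.965.

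Among all tested genes, those most like the B cell mean over the 25 libraries included Lax1 (r = 0.981), an adaptor of lymphocyte signalling, Il21r (0.968) and Fcrl1 (0.967). Those most like the plasma cell mean were AABR07060872.1 (r = 0.987), Ighm (0.975), RGD1563231 (0.974), which the table describes as similar to an immunoglobulin kappa chain, AC109901.2 (0.964) and LOC690813 (0.961). AABR07060872.1 reached 1900000 normalized counts in sham 4.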

How the data were processed

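Total RNA of rat gingiva was sequenced after removal of ribosomal RNA with a stranded kit, 1 library per rat, 25 rats in 5 groups of 5 by the labels. The deposited signal values are read counts per Ensembl transcript (Rnor_6.0) that the authors divided by 1 size factor per library. The processing notes of the submitters name DESeq2. The aligner and counter are not given in the sources used here. Dividing each column by its smallest step returned whole reads (tolerance 0.01) for 100% of values.

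The 41078 transcripts were summed to 30547 genes by symbol and chromosome. The test covered the 16092 genes whose CPM (reads scaled to a common library total) reached 2 or more in any library. The limma test (version 3.58.1 under R 4.3.3, trend and robust) was run on log2(normalized count + 1) in 1 model of 25 libraries, two-sided, with Benjamini-Hochberg adjustment over all tested genes and a threshold of 0.05. A log2 difference understates the change of genes with low counts. Alternatives were edgeR 4.0.16, DESeq2 1.42.0, other pseudocounts (0.5 and 10), filters and scalings, a replicate block, 2 groups alone, and libraries left out. The scripts were tested on simulated data.

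The members and gene lists were chosen with earlier results of these data known. The members are always named. Of each list, up to 6 tested genes with the smallest p between EP and sham are named, besides the 5 genes most correlated with the B cell and with the plasma cell members. Some genes that this rule selects are not reported here. Markers of other cell types are given by their list sums. Pim2, Chst4, Obp1f, Vip, Pigr and Igh-6 were chosen after their values were seen. Single genes are not compared by level, because no transcript length was given.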

Additional observations from a re-analysis of the deposited data

Results flagged for a closer look

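In 5 of the 40 sets formed by 8 genes and 5 groups, 1 rat lay far below the other 4 on the log2 scale, with a gap to its neighbour of more than 0.71 of the whole range. Chance alone would mark about 1 set in 20. Cur gel 2 was the low library for Ms4a1 (44.0 normalized counts, gap 0.813 of the range), Cd79b (26.2, gap 0.817), Pax5 (0, gap 0.818) and Mzb1 (67.0, gap 0.763). The 4 flags of this rat are not independent, since the genes vary together. ZNP gel 2 was the low library for Cd79b (76.1, gap 0.734). Without Cur gel 2 the Pax5 difference between Cur gel and sham was -2.35 (limma adjusted p = 0.0886).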

How the results depend on the processing

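The SD within a group of 5 rats reached 3.62 log2 units, and counts were lowest in Cur gel 2 (0 Pax5 reads), Cur/ZNP gel 1 (6 Mzb1, 9 Pax5 and 15 Ms4a1 reads) and Cur/ZNP gel 5 (6 Pax5 and 6 Tnfrsf17 reads). Between EP and sham 1 member, Pax5, was called in place of 0 with a pseudocount of 10, TMM log2 CPM, edgeR with TMM or RLE factors, DESeq2 and the replicate block, and 0 to 1 with single rats left out. Between Cur gel and sham the count of 1 became 0 with 2 groups alone and without sham 4, EP 3 and EP 4, 2 with edgeR (TMM and RLE) and 5 with DESeq2, and was 0 to 1 with single rats left out. Between ZNP gel and sham it went from 0 to 1 with a pseudocount of 10, TMM log2 CPM, edgeR (TMM and RLE) and DESeq2. Between Cur/ZNP gel and sham it went from 4 to 1 with 2 groups alone, edgeR (TMM and RLE) and without sham 4, EP 3 and EP 4, and was 1 to 6 with single rats left out. The cause was not tested. The 6 comparisons among diseased groups kept 0 called members in all 22 alternatives each. Among single genes between EP and sham, the direction reversed for Jchain without sham 4, EP 3 and EP 4 (-0.04), for Mzb1 without EP 1 (0.08, the range with single rats left out being -1.39 to 0.08) and for Tnfrsf17 without sham 4, EP 1, EP 2 or EP 5 (0.65, 0.38, 0.13 and 0.13, range -0.83 to 0.65).

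The rat numbers shared between groups were not found to pair the rats. Deviations of same-numbered rats from their group means correlated at -0.392 to 0.506 (median -0.00735) over 50 pairs, of which 17 passed 0.1, against a median of -0.0256 for other pairs. With the replicate block Pax5 was called between EP and sham (limma adjusted p = 0.0479) and Pou2af1 between Cur/ZNP gel and sham (-3.00, limma adjusted p = 0.0468). The alternatives for single members in the gel comparisons and for gene lists were chosen after seeing the data. Over them the called genes of the B cell surface list numbered 1 to 12 between EP and sham and 1 to 18 between Cur/ZNP gel and sham.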

Other observations

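The read ratio of 2 members within a library does not depend on its depth or scaling. Jchain had 1.05 to 14 reads per Cd79a read in sham (median 6.55) and 7.95 to 43.0 in EP rats (median 38.3), with 4 of the 5 EP rats at 37.8 or more and no sham rat above 14. Among treated rats the medians (ranges) were 19.4 (5.64 to 29.0) with Cur gel, 18.2 (11.4 to 36.1) with ZNP gel and 11.2 (6.08 to 32.2) with both drugs. EP rats 1 and 2 stood at 37.8 and 43.0, beside 40.4 and 38.3 in EP 3 and EP 4. Nasal gland lipocalins summed to 1160, 16500, 15100000 and 21300000 normalized counts in EP 1 to 4. Mucous salivary gland genes summed to 1780000, 9520000, 4590000 and 36200 there. The part of gland tissue in this ratio was not tested. With Mzb1 in place of Jchain, EP 2, EP 3 and EP 4 stood above all sham rats, but EP 1 and EP 5 did not. EP 1 (77 Mzb1 and 68 Cd79a reads) and EP 5 (973 and 1113) were below sham 4 (4451 and 2506). With Tnfrsf17 in place of Jchain, EP 1 to 4 stood above all sham rats and EP 5 did not. The ratio of transcripts from different cells in bulk tissue cannot be told apart from a change within 1 cell type, and no test was run on these ratios.

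Pax5 had 21.5 to 33.8 reads per 100 Cd79a reads in the 5 sham rats, whether or not their B cell genes were high. With either single gel the value was lower, 0 to 19.7 (Cur) and 3.56 to 20.1 (ZNP), all below the sham range. In EP rats it had 1.68 to 35.3 and in Cur/ZNP gel rats 7.45 to 47.4, the highest of these from 9 Pax5 and 19 Cd79a reads. EP 3, the library with the lowest value in its group, had 22 Pax5 and 1308 Cd79a reads. The gap between the single gels and sham did not hold with Cd79b in place of Cd79a. Relative to Cd79b, Cur gel 5 (154 Pax5 and 788 Cd79b reads) and ZNP gel 2 (35 and 88) were above sham 4 (552 and 3008). These ratios were formed after the values were seen and were not tested.

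Igh-6 is an immunoglobulin heavy chain entry that was listed only as another name of Ighm and was not counted. It read 766000 normalized counts in sham 4, 251000 in Cur/ZNP gel 4 and 218000 in ZNP gel 3, and 387 and 1250 in Cur/ZNP gel 1 and 5. Pigr, which carries polymeric IgA across gland epithelium, read 187 and 233 in those 2 rats, the lowest values of all 25 libraries, and 258000, 165000 and 179000 in sham 4, EP 3 and EP 4. Cur/ZNP gel 1 and 5 were also at 0 normalized counts for Glycam1 and at 157 and 319 for Jchain.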
